A study of Mus musculus with 3 samples.

Results

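Late migrating interneuron neuroblasts were chosen by their measured values, as the cells in which at least 4 of the 6 genes Dlx6os1, Dlx1, Sp9, Gad2, Synpr and Stmn2 had a value above 0, Insm1 was at 0, at most 1 of the 4 cell cycle genes Mki67, Top2a, Cenpf and Birc5 was above 0, and at most 1 of the 4 glial and vessel genes Aqp4, Pdgfra, Csf1r and Cldn5 was above 0. The rule held 901 of 14192 cells, called late neuroblasts here, and these were split further into 268 cells with Htr3a above 0 and 633 with Htr3a at 0. The cells came from prefrontal cortex of mice of both sexes, killed on postnatal day 6 on the day they had inhaled sevoflurane, a volatile anaesthetic, at about 3%. Droplet (10x Genomics Chromium) libraries were made from 3 samples, which form 1 group, and no unexposed group was analysed here. No value below therefore measures a response to the anaesthetic. Strain, genotype and pooling of animals are not given in the sources used here, nor is it stated that the 3 libraries stem from different animals. Each p-value of the main tests therefore rests only on how differences between cell sets varied over these libraries, a spread that may be technical. That spread was estimated partly from the other genes tested, and from all cell sets of a fit together. Differences in level between the libraries were taken out of it. The labels' protocols describe freezing of tissue and extraction of RNA, not how single cells were obtained.

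Cortical and olfactory interneurons are born outside the cortex, in the ganglionic eminences and, after birth, in the subventricular zone that the lateral eminence leaves behind. Homeodomain factors of the Dlx family switch on the GABA-making enzymes Gad1 and Gad2 there, and the newborn neuroblasts leave the cycle and migrate tangentially with doublecortin (Dcx) bound to their microtubules. Insm1 is a zinc finger factor that is transient in newly formed neurons, and Htr3a, a subunit of the ionotropic serotonin receptor, marks interneurons of caudal eminence origin and olfactory bulb neuroblasts.

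The deposited values had been depth-corrected by the authors and are called corrected counts here. Each cell was scaled to the same total, the usual CPM scale, and a level is the mean over the cells of a set in a library. The 3 libraries held 296 late neuroblasts of 4775 cells, 147 of 5134 and 458 of 4283. A late neuroblast had a median of 1659 detected genes, against 1831 in early neuroblasts, 2730 in dividing cells of the lineage and 2535.5 over all cells. Corrected count totals per library ran from 24612481 to 29581504, and the depth before correction is unknown. Library 3 stood apart in the lineage, with the highest share of late neuroblasts and the lowest share of dividing cells, and is named wherever a result turns on it. Between 26 and 35 barcodes were shared by each pair of libraries. Cells with at least 2 of Neurod6, Neurod2, Tbr1 and Eomes and few interneuron genes, the excitatory lineage that makes up most neurons of cortex, numbered 136 in all, and Slc17a7 was detected in 63 of 14192 cells.

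Late neuroblasts made up 6.20% of cells in library 1 (95% exact Clopper-Pearson interval 5.53% to 6.92%), 2.86% in library 2 (2.42% to 3.36%) and 10.7% in library 3 (9.78% to 11.7%), a mean of 6.58% ± 3.93 (SD, n = 3). The intervals, which cover counting error only, do not overlap between any 2 libraries. Early neuroblasts, which met the same rule but had Insm1 above 0, were 6.55%, 3.45% and 4.23% of cells (671 in all). Dividing Dlx-positive cells, with at least 4 of the 6 genes and at least 2 of the 4 cell cycle genes, were 5.59%, 3.33% and 2.08% (527 in all). The order of the libraries thus differed between stages: of late and early neuroblasts together, late ones were 48.6%, 45.4% and 71.7%. The plot of shares shows library 3 above the others for late neuroblasts and below them for dividing cells.

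**Figure D1:**
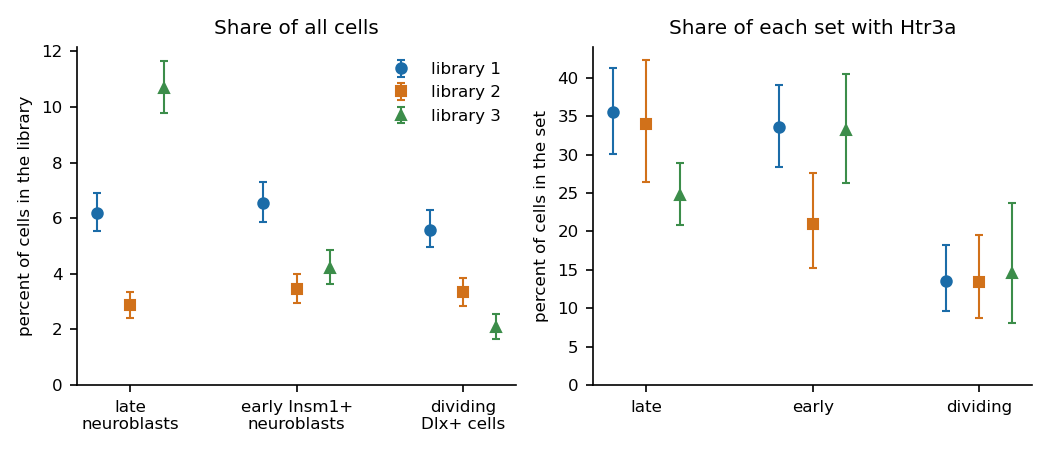
Left, the percent of each library's cells that were late neuroblasts, early Insm1-positive neuroblasts and dividing Dlx-positive cells; right, the percent of each set with Htr3a above 0. Points are libraries and bars are 95% exact binomial intervals; late neuroblasts ranged from 2.86% to 10.7% of cells, and the share with Htr3a was 24.7% to 35.5% in late and 13.5% to 14.6% in dividing cells.

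The rule cut through few cells at its lower edge. With its other conditions met, 102 cells had 2 of the 6 genes, 44 had 3, 174 had 4, 382 had 5 and 345 had 6. The edge with early neuroblasts was broader: 265 of the 671 early cells held a single corrected count of Insm1 and 406 held more. Of the late cells, 73 had 1 of the 4 cell cycle genes (8.32% ± 2.52, SD, n = 3, of early cells 15.1% ± 1.84) and 218 had 1 of the 4 glial and vessel genes. Suspected doublets were 33 of the 901.

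Genes that the rule did not use were checked for the same lineage. Dcx was detected in 94.6%, 90.5% and 94.8% of late neuroblasts in libraries 1, 2 and 3, and in 5.13% of a set of microglia (2083 cells, median 1992 detected genes) taken as background. Dlx2, which acts with Dlx1, was detected in 84.1%, 83.0% and 87.1% against 1.17% in microglia. Gad1 was detected in 47.0%, 42.2% and 45.0%, and Slc32a1, the vesicular GABA transporter, in 20.9%, 31.3% and 42.8%, highest in library 3. Cd24a, a surface protein of migrating neuroblasts, and Tubb3, the neuronal tubulin, were found in at least 98.0% and 99.3% of cells in each library. Dlx2 and the neuronal genes Dcx, Cd24a and Tubb3 were thus present in most cells, and the GABA genes Gad1 and Slc32a1 in many but not most. The neuronal genes do not tell GABAergic cells from others, and Tubb3 was also present in the excitatory lineage, as given below. No background is given here for Gad1, Slc32a1, Cd24a or Tubb3. The 10 excitatory neuron markers summed to 2.85 to 21.0 CPM in late neuroblasts and 9.16 to 27.7 CPM in the microglia set. The excitatory lineage, at 1866 to 2730 CPM, was chosen by genes of this kind, so its sum is high by construction.

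Detection of regional factors ranged widely within each origin. Among 15 listed lateral eminence and olfactory bulb factors, Meis2 was found in 876 and Etv1 in 614 of 901 late cells, Gsx2 in 4 and Isl1 in 0. Meis2, a homeodomain factor of lateral eminence derivatives, was detected in 97.0%, 96.6% and 97.6% of cells. Its level overlapped that of the excitatory lineage, as given below, so this share alone does not mark lateral origin. Etv1 was detected in 63.2%, 59.9% and 74.0%, and Sp8, a zinc finger factor of both caudal and lateral eminence neuroblasts, in 55.7%, 55.8% and 69.0%. Pax6 was present in 36.5%, 40.1% and 37.5%. The plot of regional genes shows that library 3 was highest for Etv1, Sp8, Tshz1, Pbx3 and Prokr2, while Meis2 and Pax6 differed little between libraries. Pbx3 had the widest spread, 17.2%, 6.80% and 37.8%, with a microglial background of 8.13% that the value of library 2 did not exceed. Prokr2, the prokineticin receptor that olfactory bulb neuroblasts need to migrate, followed at 9.46%, 14.97% and 36.7% against 0.291% in microglia.

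Listed caudal eminence factors ranged from Nfib, a nuclear factor shared with other lineages, in 890 late cells to Egln3 in 9. Adarb2, an RNA-binding protein of caudal eminence interneurons, was detected in 37.2%, 30.6% and 49.3% of late neuroblasts, Prox1 in 21.3%, 16.3% and 11.6%, Nr2f1 in 19.6%, 14.97% and 10.3%, and Nr2f2 in 7.09%, 2.04% and 2.18%. Prox1 and Nr2f1 were thus lowest in library 3, the reverse of Pbx3 and Prokr2. Lhx6 (chr2:36081953-36105408 on the minus strand, GRCm38), which defines medial eminence interneurons, was at 0 in all 901 late cells, which allows a share of up to 0.333% of cells with a corrected count (not of cells that express the gene), and was detected in 14 of all 14192 cells. Among other listed medial eminence factors Tcf12 was found in 322 late cells, Satb1 in 146, Nxph1 in 129 and Sox6 in 63. Sox6 was detected in 9.80%, 11.6% and 3.71%, against 8.66% in microglia.

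**Figure D2:**
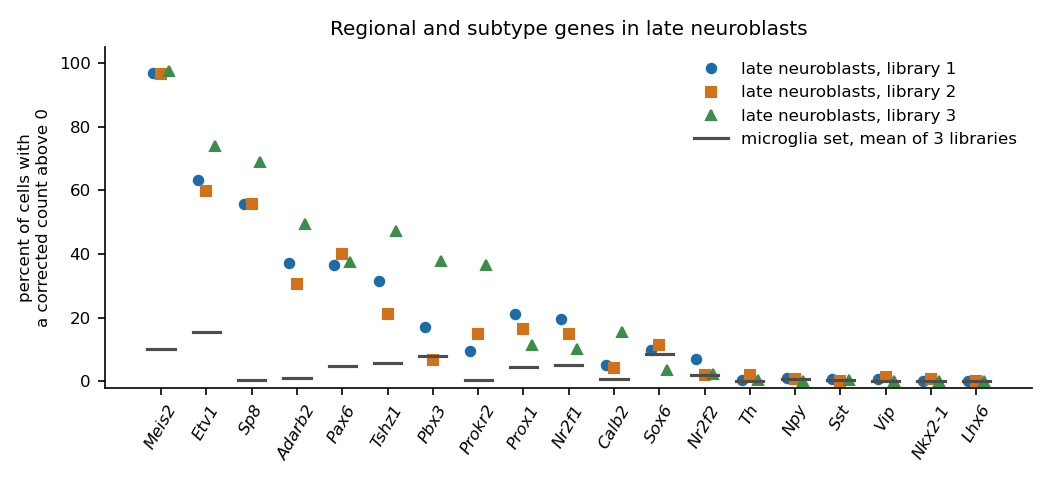
Percent of late neuroblasts in each library (points) with a corrected count above 0 of regional factors and subtype genes, with the mean of the microglia set as a bar. Meis2 was near 97% in every library, Pbx3 and Prokr2 were highest in library 3 (37.8% and 36.7%), and Lhx6 was at 0.

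Genes of mature interneuron classes were detected in few late cells. Sst was detected in 4 late cells, Npy in 5, Vip in 4 and Th in 6 of 901. Of the 168 corrected counts of Vip, 129 lay in 1 cell. Calb2, the calretinin gene of a bulb interneuron class, was the most frequent, with 92 cells, and was at 20.0, 18.5 and 101 CPM in libraries 1, 2 and 3. Library 3 was again high, and it was high in early neuroblasts as well (34.8, 31.1 and 155 CPM). Lamp5 and Htr3b, the second serotonin receptor subunit, were at 0 in late cells and were detected in 15 and 2 cells of the whole table. Slc12a5, the chloride exporter of mature neurons, averaged 0.896 CPM ± 0.195 (SD, n = 3), and the importer Slc12a2 16.6 CPM ± 4.93.

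Since 876 of all 901 late cells held Meis2, its share among cells with Sp8 (98.0% of 563), Etv1 (98.4% of 614) or Prokr2 (99.5% of 218) is close to that of any late cell. Tshz1 was found in 340 and Pbx3 in 234 of the 901. Pbx3 and Tshz1 were both found in 136 cells, 58.1% of the Pbx3 cells and 40.0% of the Tshz1 cells. Nr2f2 and Prox1 shared 14 cells, which were 41.2% of the 34 cells with Nr2f2 and 10.0% of the 140 with Prox1. These shares pool 3 libraries that differ in the levels of these genes and carry no test.

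Late neuroblasts were compared with early ones to ask what differs once Insm1 is no longer detected. Genes of DNA replication were lower in late neuroblasts, as were some progenitor genes, while a small set of lateral eminence factors, Adarb2 and neuronal genes was higher. Of 8020 genes tested with limma, 385 passed a Benjamini-Hochberg adjusted p of 0.05 (4.80%); 136 were higher in late cells (1.70%) and 249 lower (3.10%), with a median log2 fold of -0.02. At an unadjusted p under 0.05 there were 1412. Folds are on the scale log2(CPM + 10), which understates the change of weak genes, and are given with their standard errors. The count was 157 without library 1, 147 without library 2 and 397 without library 3, and was 186 when cells with any of the 4 cell cycle genes were left out, a setting chosen after seeing the data.

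Rrm2 (chr12:24708241-24714146, plus strand), the small subunit of ribonucleotide reductase, was at 124, 188 and 106 CPM in early neuroblasts of libraries 1, 2 and 3 and at 27.0, 23.5 and 9.75 CPM in late ones. The groups did not overlap, and the log2 fold was -2.33 ± 0.14 (limma, adjusted p = 7.39e-09). Mcm2 (chr6:88883474-88898780, minus strand), a subunit of the replicative helicase, went from 82.9, 92.9 and 58.9 CPM in early cells to 11.4, 10.5 and 7.83 CPM in late ones, a log2 fold of -2.13 ± 0.16 (adjusted p = 1.03e-07). Pclaf, a PCNA-binding factor, differed by -2.29, Mcm3 by -1.76, Mcm5 by -1.62 and Hells, a chromatin remodeller of dividing cells, by -1.55. All 20 genes of the cell cycle list were tested, and 13 were lower, 0 higher, with a median log2 fold of -0.86. Both sets were limited to at most 1 of the same 4 cell cycle genes; with none of the 4 allowed, 11 of the 20 were lower and 0 higher, with a median of -0.62. Ccnd2, the cyclin D of neural progenitors, was still abundant in late cells, at 2707, 2049 and 1597 CPM, against 4045, 4122 and 2414 CPM in early cells. Its ranges overlapped, since library 3 was low at both stages, but it was lower in each library, with a log2 fold of -0.72 ± 0.08 (adjusted p = 1.75e-05, and 0.0531 when the library was not taken into account).

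Of the 13 lower genes of the cell cycle list, 10 had an entry in RefSeq's promoter table (GRCm38.p6), and the 250 bases before the start site were searched on both strands for the E2F-type motifs TTTGGCGC, TTTCCCGC and TTTCGCGC, where overlapping matches can share bases. E2F factors drive genes of DNA replication. The promoters of 3 of the 10, those of the helicase genes Mcm6, Mcm5 and Mcm7, held a match and are printed with the motif in capitals. Those of Rrm2, Mcm2 and Mcm3, whose falls given above were larger, held no match. Mcm6 lies on the minus strand (chr1:128359706-128359955), Mcm5 on the plus strand (chr8:75109259-75109508) and Mcm7 on the minus strand (chr5:138171884-138172133, 1 of its 2 listed starts).
Mcm6: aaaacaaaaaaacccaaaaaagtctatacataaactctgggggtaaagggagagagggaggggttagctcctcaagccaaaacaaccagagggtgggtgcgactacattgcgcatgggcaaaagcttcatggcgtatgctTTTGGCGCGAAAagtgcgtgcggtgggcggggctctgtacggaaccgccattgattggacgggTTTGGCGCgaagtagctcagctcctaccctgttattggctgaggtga
Mcm5: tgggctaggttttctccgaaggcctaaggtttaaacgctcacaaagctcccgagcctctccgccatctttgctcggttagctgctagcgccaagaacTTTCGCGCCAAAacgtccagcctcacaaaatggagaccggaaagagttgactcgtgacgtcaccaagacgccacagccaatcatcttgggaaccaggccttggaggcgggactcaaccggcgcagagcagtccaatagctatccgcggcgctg
Mcm7: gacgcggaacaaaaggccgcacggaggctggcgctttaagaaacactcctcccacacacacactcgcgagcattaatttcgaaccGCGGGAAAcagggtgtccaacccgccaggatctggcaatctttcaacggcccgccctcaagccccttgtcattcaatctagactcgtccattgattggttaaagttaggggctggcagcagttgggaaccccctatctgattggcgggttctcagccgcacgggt
Mcm6 held 3 matches, Mcm5 2 that overlap, and Mcm7 1. Mcm6 went from 104, 127 and 51.7 CPM in early cells to 36.8, 32.5 and 21.5 CPM in late ones, and Mcm7 from 152, 169 and 110 to 101, 90.6 and 87.7 CPM. Both were lower in every library (log2 folds -1.31 ± 0.15 and -0.56 ± 0.12; limma adjusted p = 2.69e-05 and 0.00682). Mcm6 and Mcm7 were chosen for printing after their values were seen. Over all 207 lower genes with a promoter 10.1% held a match, against 1.09% of 92 higher genes, 4.03% of 6352 tested genes and 1.78% of all 27025 promoters. A match describes the letters only, and these shares carry no test.

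Progenitor genes behaved unevenly. Of 19 listed, 13 were tested, 3 were lower and 0 higher. Vim, an intermediate filament of neural progenitors, was at 206, 163 and 58.4 CPM in late and 301, 250 and 183 CPM in early cells (log2 fold -0.87 ± 0.19, adjusted p = 0.00918, and 0.233 among cells with many detected genes). Gadd45g, a stress and neurogenesis factor, was at 148, 150 and 152 CPM in late and 231, 252 and 240 CPM in early cells, with very little spread between libraries (-0.65 ± 0.10, adjusted p = 0.000344). Rgs16, a regulator of G protein signalling, passed narrowly (-0.57, adjusted p = 0.0434). Sox2 and Hes6 were not past the threshold, with log2 folds of 0.16 and 0.06. Mdk, the secreted growth factor midkine, was at 443, 455 and 272 CPM in early and 153, 193 and 54.4 CPM in late cells (-1.60 ± 0.16, adjusted p = 5.35e-06), and E130114P18Rik differed by -1.54.

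Among lateral eminence and olfactory bulb factors, 12 of 15 were tested, 5 were higher in late cells and 2 lower, with a median log2 fold of 0.39 beside -0.02 over all genes. The counts were 3 higher and 1 lower without library 1 and again without library 2, and 6 and 1 without library 3. Pbx3 (chr2:34171457-34373142, minus strand) was at 24.1, 11.7 and 64.2 CPM in early and 65.0, 30.3 and 186 CPM in late cells. It was higher in each library, although library 2 stayed below the early value of library 3, and the log2 fold was 1.14 ± 0.19 (adjusted p = 0.000992, and 0.01 without library 3). Only under 2 of 15 alternatives, cells with many detected genes and no library block, did it miss the threshold. Tshz1, a zinc finger factor needed for bulb interneuron placement, went from 48.8, 47.1 and 112 CPM to 108, 85.6 and 206 CPM (0.86 ± 0.16, adjusted p = 0.00249). Gsx2, an early lateral eminence factor and 1 of the 2 lower genes, was near the floor in late cells (-1.08 ± 0.21, adjusted p = 0.00359). It was detected in 4 late cells, 31 early ones and 91 of 527 dividing ones. The filter on mean level took in the dividing cells, so the place of Gsx2 in this test can rest on them. Its call was lost when cells with any of the 4 cell cycle genes were left out, under a pseudocount of 50 CPM, with no filter and on the deposited log values. Pax6 was at -0.40 and lost its call without any 1 of the 3 libraries. Etv1, higher by 0.37, lost it without library 1 or library 2. Meis2 (0.32 ± 0.11, adjusted p = 0.12) and Sp8 (-0.01 ± 0.08, adjusted p = 0.963) did not pass.

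Of 10 caudal eminence factors 7 were tested, 2 were higher and 1 lower. Adarb2 (chr13:8202866-8768747, plus strand) was at 68.7, 48.5 and 104 CPM in early and 178, 100 and 264 CPM in late cells, a log2 fold of 1.14 ± 0.16 (limma, adjusted p = 0.000238), and passed under all 15 alternatives. Nr2f1, an orphan nuclear receptor, was higher by 0.84 and was lost without any 1 of the 3 libraries. Nfix, a nuclear factor, was lower by -0.36. Prox1 was not past the threshold (-0.26 ± 0.18, adjusted p = 0.52). Nxph1, a neurexin ligand and the only medial eminence gene of 5 tested to pass, was higher by 0.76, and missed the threshold without library 1 or library 2. Sox6 was at -0.57 with an adjusted p of 0.0566. Of the 3 subtype genes that could be tested, Vip passed (1.68), with the 1 cell described above and library 3 at 0. Without library 2 it did not (limma adjusted p = 0.183). Vip was detected in 4 late cells, 1 early cell and 1 dividing cell. Its place in the test can rest on the late cells, so no difference between stages is drawn from this call.

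Neuronal genes differed mildly. Gria2, the AMPA receptor subunit that limits calcium entry, was at 318, 370 and 354 CPM in early and 453, 546 and 512 CPM in late cells; the groups did not overlap, and the log2 fold was 0.52 ± 0.08 (adjusted p = 0.000436). It was the only call among 5 tested of 13 glutamate receptor subunits. Mapt, the microtubule protein tau, was at 119, 90.4 and 219 CPM and then 177, 152 and 309 CPM (0.57 ± 0.12, adjusted p = 0.00733), and missed the threshold without library 1 or library 2. Of 22 microtubule and leading process genes 4 were higher and 1, Dclk2, a doublecortin-like kinase, was lower (-0.38); the counts were 0 and 0 without library 1 and 0 and 1 without library 2. Erbb4, the neuregulin receptor of migrating interneurons, was higher (0.78 ± 0.16, adjusted p = 0.00621, and not past the threshold without library 1), and Cd24a was lower (-0.28 ± 0.05, adjusted p = 0.00256), the only 2 of 14 tested migration genes to pass. Dcx (0.05), Robo2 (0.17) and Tubb3 (-0.08) did not pass. Gad1 (0.22) and Slc32a1 (0.31) did not pass.

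**Figure D3:**
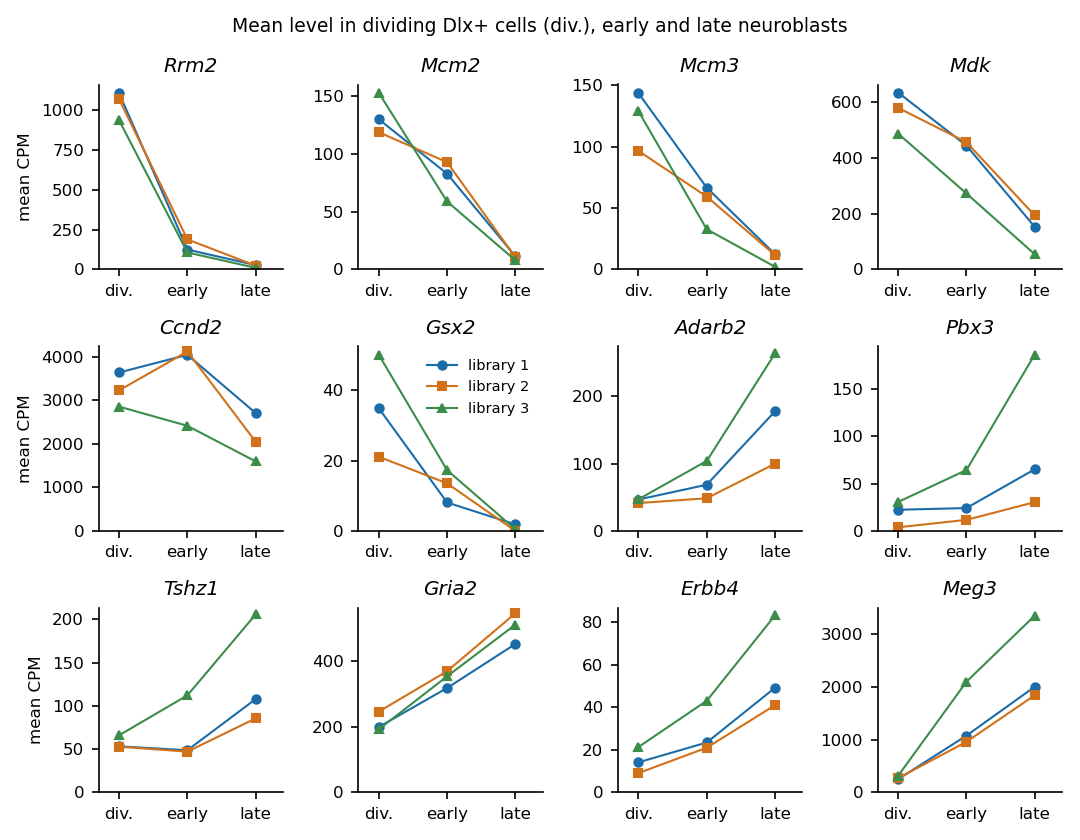
Mean CPM of 12 genes in dividing Dlx-positive cells (div.), early and late neuroblasts, each line a library. Rrm2, Mcm2, Mcm3 and Mdk were lowest in late cells in all 3 libraries, and Adarb2, Pbx3, Gria2, Erbb4 and Meg3 were highest in late cells, with library 3 above the others for all of these except Gria2.

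Other listed groups held few or no calls between late and early cells. Of 12 apoptosis genes tested, 1 was lower, Cycs, the cytochrome c gene (-0.51 ± 0.09, adjusted p = 0.00135), while Bax (-0.23) and Bcl2 (0.25) did not pass. Of 9 immediate early genes tested 0 passed, with Fos at 0.43 (adjusted p = 0.234). Of 5 chloride cotransport genes and 3 GABA-A and glycine receptor subunits tested 0 passed. Of 14 synaptic genes tested 1 passed, Cacna2d1, a calcium channel subunit (0.93), which was lost without library 2 or library 3; Syt1 (0.32) and Snap25 (0.37) did not pass. Sox4 was higher (0.21) and Myt1 lower (-0.53) among 12 tested neuronal transcription factors, and the call of Sox4 was lost without library 1 or 2, that of Myt1 without any 1 library. Of 12 adhesion genes tested 1 passed, Cdh2, N-cadherin (0.37), lost without library 1 or 2. Dlx2 and Sox11 did not pass (-0.04 and -0.16). Igfbpl1, an IGF-binding protein of young neurons, was lower by -0.25, and lost its call without library 1.

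Of the 8 largest rises that went the same way in 3 libraries, 7 were in genes of other cell types. Globin genes Hbb-bt, Hba-a2, Hba-a1 and Hbb-bs differed by 1.81, 1.78, 1.77 and 1.70, Rgs5, a pericyte gene, by 1.52, Mbp, a myelin gene, by 1.47 (lost without library 1 or 2), and Igfbp7, a vessel gene, by 1.23; the eighth, Snhg11, a small nucleolar RNA host gene, was at 1.32 and was lost without library 2. The 5 erythroid markers summed to 6322 to 8369 CPM in late cells over the libraries, 1627 to 3417 CPM in early cells and 11690 to 13460 CPM in the microglia set. All 4 tested were higher and none is at 0. The 7 vessel markers summed to 495 to 1044 CPM in late and 193 to 357 CPM in early cells, and 4 of 5 tested were higher. The 7 microglia markers summed to 338 to 393 and 157 to 284 CPM, with 0 of 6 past the threshold, and the 8 astrocyte markers to 2131 to 2508 and 1469 to 2431 CPM, with 1 of 8, Apoe, higher (lost without library 1). Oligodendrocyte lineage markers overlapped, at 186 to 558 and 141 to 241 CPM, with 1 of 8, Mbp, higher.

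These counts lay partly in few cells, to a degree that differed between genes and was counted in late neuroblasts only. Of the corrected counts of Hbb-bs in late neuroblasts, 51.5% were in 5 cells, although 847 of 901 cells held at least 1. For Mbp the share of the top 5 cells was 63.2%, for Rgs5 47.7% and for Igfbp7 36.2%. Sparc, a vessel marker found in 428 late cells, had 20.9% in its top 5 cells, against 7.52% for Adarb2 and 6.95% for Pbx3. With the mean of the deposited log values, which weighs such cells less and was added after seeing the data, 0 of 4 tested erythroid markers and 1 of 4 vessel markers passed, while 12 of 20 cell cycle genes were still lower. The part of cells with such high counts in the other results was not tested. Adarb2, Gria2, Rrm2 and Mcm2 also passed without the cells that held any of the 4 glial and vessel genes. In that setting 4 of 4 tested vessel markers (median log2 fold 1.05) and 3 of 4 erythroid markers (0.96) were still higher in late cells. Leaving those cells out thus did not remove the signal of other cell types, and cannot show its part in these genes. Without those cells Erbb4 (0.59, adjusted p = 0.124), Nxph1 (0.63, adjusted p = 0.134), Cacna2d1 (0.82, adjusted p = 0.0621), Myt1 (-0.40, adjusted p = 0.235), Apoe (0.29, adjusted p = 0.0952) and Hba-a2 (0.90, adjusted p = 0.0502) no longer passed in limma, and Meis2 (0.38, adjusted p = 0.041) did.

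**Figure D4:**
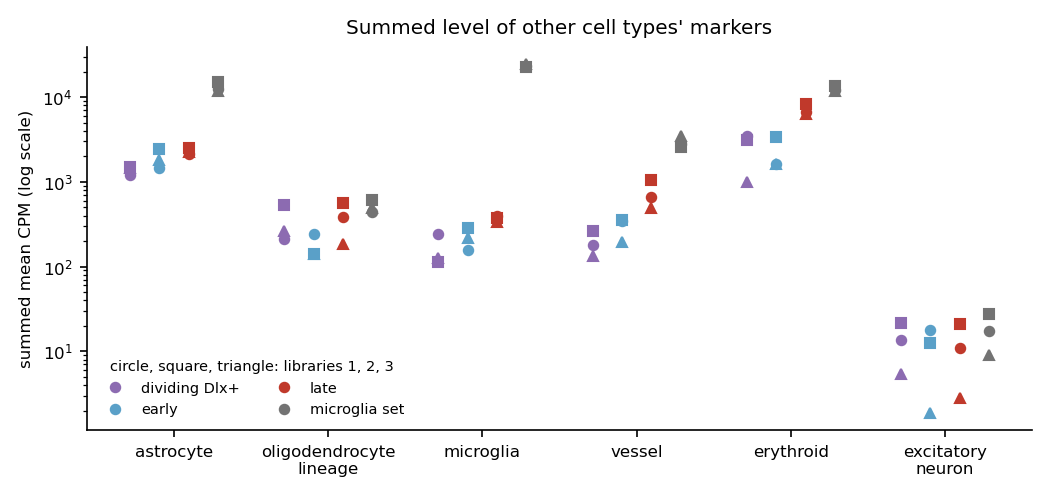
Summed mean CPM of markers of 6 other cell types (log axis) in dividing, early and late cells and in the microglia set, each point a library. Erythroid markers were at 6322 to 8369 CPM in late and 1627 to 3417 CPM in early neuroblasts, while excitatory neuron markers stayed at or below 21.0 CPM in late cells.

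Late neuroblasts were also set against dividing Dlx-positive cells of the same lineage. Cell cycle genes define the dividing set and were lower in late cells by construction: 19 of 20 were lower, with Pclaf at -5.80, Pbk at -5.58, Ube2c at -5.57, Spc25 at -5.39 and Ccnb1 at -5.28. Of the same 8020 genes 3440 passed (42.9%), 1118 higher in late cells (13.9%) and 2322 lower (29.0%), with a median of -0.15. Centring the log values of each cell set in each library on the median gene turned the split to 2268 higher and 1171 lower. The median fold was then 0.12. The directions of the genes named below held under that scaling and for unscaled corrected counts. The calls of Stmn1 and Sall3 were lost after centring. Dividing cells had a median of 2730 detected genes, late cells 1659.

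Neurite and microtubule genes were higher in late cells: of 22 tested, 15 were higher and 1, Stmn1, lower (19 and 0 after centring, 13 and 3 for unscaled corrected counts). Mapt stood at 49.6, 36.1 and 64.1 CPM in dividing cells and 177, 152 and 309 CPM in late ones (1.86 ± 0.12, adjusted p = 2.33e-10), and Stmn4, a stathmin of neurons, differed by 1.60. Tubb3 was higher by 0.81 and Dcx by 0.86. Of 14 migration genes 7 were higher and 1, Epha4, lower (10 and 1 after centring, 5 and 5 of 17 for unscaled corrected counts). Prokr2 (chr2:132337733-132385447, minus strand) was at 7.13, 3.76 and 0 CPM in dividing cells, 13.4, 12.1 and 51.5 CPM in early and 24.7, 40.7 and 129 CPM in late cells. Its log2 fold over dividing cells was 2.23 ± 0.34 (adjusted p = 2.48e-05), and over early cells 0.98 ± 0.34 (adjusted p = 0.109). Erbb4 was higher by 1.43 and Robo2, a Slit receptor, by 1.04. Of 12 adhesion genes 7 were higher and 0 lower (4 and 0 without library 1 or for unscaled corrected counts), Nrxn3 (0.66) and Pcdh8 (0.70) among them. Of 14 synaptic genes 7 were higher and 0 lower, among them Rab3a (1.36), Scn3a (1.36) and Syt1 (0.81).

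Meg3 (chr12:109541001-109571726, plus strand), an imprinted long noncoding RNA, led the higher genes: it was at 251, 271 and 315 CPM in dividing, 1077, 959.9 and 2099 CPM in early and 2004, 1843 and 3353 CPM in late cells, highest in library 3 at each stage. The log2 fold over dividing cells was 3.01 ± 0.11 (adjusted p = 2.75e-14). Next came Prokr2, Rgs5 (2.18), Pls3, an actin bundler (2.12), Tcp11l2 (2.01), Dusp26, a phosphatase (1.95), Mapt and Sparc (1.83), of which Rgs5 and Sparc are vessel markers. Of 12 lateral eminence factors 6 were higher and 3 lower, with Pbx3 at 1.68, Meis2 at 1.11, Gsx2 at -2.03 and Sall3, a spalt zinc finger factor, at -0.68. Adarb2 was higher by 1.70 and Nxph1 by 1.20. Gad1 was at 85.5, 84.9 and 113 CPM in dividing and 162, 165 and 158 CPM in late cells (0.73 ± 0.12, adjusted p = 4.71e-05), and Slc32a1 was higher by 0.82. Gria2 was higher by 1.21. Of 13 progenitor genes 9 were lower, such as Vim (-1.54), and 1 was higher, Fabp7, a fatty acid binding protein of radial glia (0.48). Of 5 vessel and 4 erythroid markers tested all were higher, as were 6 of 6 microglia and 4 of 8 astrocyte markers. The part of those cells in the other calls was not tested.

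Htr3a (chr9:48899213-48911099, minus strand) was above 0 in 35.5%, 34.0% and 24.7% of late neuroblasts, 33.5%, 20.9% and 33.1% of early ones and 13.5%, 13.5% and 14.6% of dividing cells. Microglia and astrocytes, with medians of 1992 and 2760 detected genes, gave 0.146% and 0.136% on average, and the excitatory lineage gave 0 of 32, 98 and 6 cells, with upper exact limits of 10.9%, 3.69% and 45.9% for cells with a corrected count. Of the 605 cells of the whole table with Htr3a, 268 were late and 202 early neuroblasts. Levels were 167, 140 and 112 CPM in late, 159, 104 and 221 CPM in early and 30.1, 30.8 and 33.5 CPM in dividing cells; late and early ranges overlapped. After each cell was thinned to 4000 corrected counts the late shares were 31.1%, 29.5% and 21.7%. Of the 268 late cells 135 held 1 corrected count and the highest held 11.

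Late neuroblasts with Htr3a were set against those without it. Of 7554 genes tested with limma, 2 passed (0.0265%), 1 higher (0.0132%) and 1 lower (0.0132%), with 366 at an unadjusted p under 0.05. The call count moved from 0 with no library block or a pseudocount of 1 CPM to 34 without library 2, 17 without library 1 and 8 without library 3. The lower gene was Rgs5, at 138, 121 and 76.6 CPM with and 239, 264 and 159 CPM without Htr3a (-0.92 ± 0.14, adjusted p = 0.0174). Its call was lost in 5 of 13 alternatives: the fold was -0.26 (adjusted p = 0.919) without cells that held any of the 4 glial and vessel genes, -0.59 (adjusted p = 0.763) without suspected doublets and -0.02 (adjusted p = 0.973) on the deposited log values, and it also missed the threshold with no library block and with a pseudocount of 1 CPM. Markers of other cell types also differed between the subsets, in directions that varied with the library. The 9 oligodendrocyte lineage markers summed to 622, 1100 and 178 CPM with Htr3a and 247, 278 and 188 CPM without it. The 7 vessel markers, Rgs5 among them, summed to 428, 1241 and 407 against 794, 942 and 524 CPM. For the 5 erythroid markers the sums were 6968, 946.8 and 17500 against 6585, 12190 and 2662 CPM. None of the 3 sums went the same way in all libraries, and their part in the calls was not tested.

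No listed regional, migration or GABA gene passed between the 2 subsets, and the median detected genes were 1734 with and 1629 without Htr3a. Meis2 was at 1411, 1362 and 1736 CPM with and 1354, 1476 and 1748 CPM without the receptor (-0.02 ± 0.06), and Sp8 at 268, 278 and 379 against 225, 272 and 372 CPM (0.10 ± 0.11). Etv1 (0.05 ± 0.15), Gad1 (0.02 ± 0.14) and Robo2 (0.00 ± 0.11) had small folds, and Prox1 was at -0.53 ± 0.25 and Nr2f1 at -0.20 ± 0.27 (adjusted p = 0.964 and 0.969). Adarb2 was at 148, 54.6 and 210 CPM with and 195, 123 and 281 CPM without Htr3a, lower in each library (-0.61 ± 0.16, adjusted p = 0.74). In cells with Adarb2, Htr3a was found in 30.9%, 20.0% and 20.8%, and in cells without it in 38.2%, 40.2% and 28.4%; for Pbx3 the shares were 27.5%, 20.0% and 17.9% against 37.1%, 35.0% and 28.8%. For Sall3, at 32.0, 30.2 and 58.4 CPM with and 13.3, 2.13 and 14.9 CPM without Htr3a (1.34 ± 0.28, adjusted p = 0.199), the shares were 58.3%, 87.5% and 45.0% of 24, 8 and 40 cells, against 33.5%, 30.9% and 22.7%. Adarb2, Pbx3 and Sall3 were chosen here after their values were seen, and the shares carry no test.

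**Figure D5:**
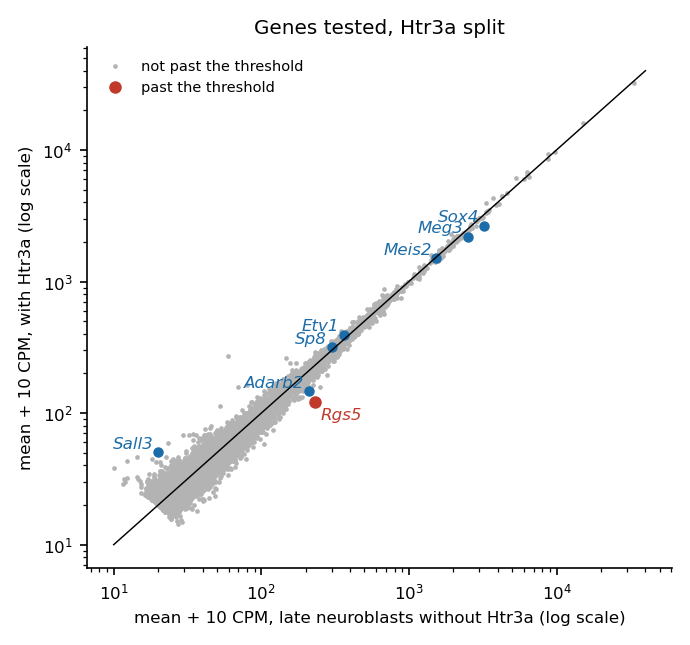
Mean level plus 10 CPM over 3 libraries of the tested genes in late neuroblasts without Htr3a (x) and with it (y), on log axes with the line of equality. Rgs5, in red below the line, passed the threshold; Meis2, Sp8, Etv1, Meg3, Sox4, Adarb2 and Sall3, in blue, did not.

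Library 3 held only 6 cells of the excitatory lineage, so the levels of that lineage are given without a test. Igfbpl1 was at 4359, 5187 and 2620 CPM there and at 1735, 1815 and 1643 CPM in late neuroblasts. Ccnd2 was at 595, 524 and 63.6 CPM there, against 2707, 2049 and 1597 CPM in late neuroblasts, and Tubb3 at 2119, 1852 and 2302 CPM against 4398, 3586 and 3617 CPM. In none of these 3 genes did the ranges overlap. Meis2 and Sox11 overlapped, at 1555, 1515 and 851 CPM and at 3121, 3160 and 2276 CPM. Gad1 and Sp8 were listed at 0 in the excitatory cells of each library.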

How the data were processed

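The authors deposited natural log (ln) values. Undoing ln(1 + x) gave a whole number, within 1e-06, for every one of 34958786 nonzero values. The submitters' processing notes name Seurat, Cell Ranger and CASAVA 1.8, and the build mm10; the depth correction and the filters on cells and genes are not given in the sources used here. The whole numbers, called corrected counts, summed to between 4422 and 8135 per cell while detected genes ran from 121 to 4213. The library of each cell came from the authors' deposited table of barcodes.

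Each cell was scaled to CPM, and the cells of a set were averaged per library. R 4.3.3 and limma 3.58.1 (trended eBayes) modelled log2(mean + 10 CPM), with each library a block, because the sets of 1 library come from the same sample. Late, early and dividing cells shared a fit with 4 residual degrees of freedom, and the Htr3a split had 2. Tested genes averaged 10 CPM or more over the sets of a fit, leaving out the 15 genes of the rule and Htr3a; a gene that passed only through the set where it is high had to differ. Dividing cells carried no condition on Insm1. Microglia for background had at least 2 of Csf1r, P2ry12, C1qa and Tmem119, and astrocytes at least 2 of Aqp4, Slc1a3, Gja1 and Aldoc with Aqp4 above 0, both with at most 1 of the 6 interneuron genes. The fit was tested on simulated data. The simulation did not model counts that lie in few cells, so it cannot show how the fit handles them. Doublets were called per library with Scrublet in scanpy 1.11.5, 287 of 14192 cells, and were left in except under 1 alternative. The members, the 25 gene lists and the tests were chosen with earlier results of these data known. The text names, in each comparison, the 8 largest folds in each direction that passed and went the same way in 3 libraries, the 2 largest per list and direction, and a list of 39 key genes, with exceptions stated; some genes that this rule names are not reported here, in text or figures. Gene positions are from GENCODE vM21 (GRCm38, the same assembly as mm10). Alternatives were other pseudocounts, filters, scalings, rule limits, cells, no library block and each library left out; alternatives on the 4 glial and vessel genes, the 4 cell cycle genes and the deposited log values were added after seeing the data.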

Additional observations from a re-analysis of the deposited data

How the results depend on the processing

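Leaving out 1 library each time gave late shares of 4.53% to 8.45% (main 6.58%) and dropping the condition on Insm1 11.3%; the other share alternatives moved by less than the SD between libraries. Genes past the threshold between late and early cells were 385, and 183 with no filter on low values, 151 with no replicate block, 186 with none of the 4 cycle genes, and 147 to 397 with a library left out; the other alternatives stayed within 1.5 times. Between late and dividing cells they stayed within 1.5 times of 3440 in all alternatives. For Htr3a the 2 calls became 0 with a pseudocount of 1 CPM, 0 with no replicate block, 8 to 34 with a library left out, 4 without suspected doublets, 6 on the deposited log values, and 1 each for unscaled corrected counts, cells with many detected genes and cells with none of the 4 glial and vessel genes. Against dividing cells, 6 named genes passed the threshold in an alternative with their sign changed. On unscaled corrected counts these were Dlx2 (-0.22), Sox11 (-0.15) and Cd24a (-0.18). On log values they were Dlx2 (-0.15), Sox11 (-0.13), Bax (-0.12), Calb2 (-0.05) and Sp8 (-0.09). None of the 6 had passed the threshold in the main result. After centring on the median gene, Dlx2 (0.30), Sox11 (0.37), Cd24a (0.33), Bax (0.36) and Sp8 (0.37) passed as higher. Sign changes where neither result passed were not counted. The cause of these shifts was not tested. The planned test and alternatives for the excitatory lineage were not run, since library 3 held 6 such cells. Depth before correction is unknown, so detection limits rest on corrected counts.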
